A study of Mus musculus with 6 samples.

Results

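The 39 genes described here make cholesterol and fatty acids, sense sterols, or carry lipid out of the cell, and they were followed in cultured mouse macrophages with Hdac2 floxed alone or also targeted by LysM-Cre. They were taken by symbol from a fixed list, and all 39 had a row in the table of 17313 genes. By role they comprised 18 enzymes of cholesterol synthesis, 6 genes of sterol sensing and transport, 7 genes of fatty acid synthesis and desaturation (lipogenesis), 5 genes of the liver X receptor (LXR) and efflux arm, and 3 further genes of LXR signalling and cholesterol esterification. Poly(A) RNA-seq was measured in bone marrow-derived macrophages of C57BL/6 mice that had been injected with LLC1 Lewis lung carcinoma cells by vein, with marrow collected at day 20. The Hdac2fl/fl group, labelled WT, had 3 libraries, and the Hdac2fl/fLysMCre group, labelled as the HDAC2 knockout and called KO, also had 3. Both groups thus carried floxed alleles and the tumour, and they differed in the Cre, which LysM drives in myeloid cells. No age or sex of the mice and no tumour-free control was given in the labels.

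Macrophages balance sterol supply against sterol removal. When membrane cholesterol is low, SCAP escorts SREBP proteins from the endoplasmic reticulum to the Golgi, where they are cleaved, enter the nucleus and switch on genes of sterol and fatty acid synthesis, and INSIG proteins hold SCAP back when sterol is plentiful. When cholesterol and its oxidised forms accumulate, the nuclear receptors LXR alpha and LXR beta switch on exporters such as ABCA1 and ABCG1, the lipoprotein APOE and MYLIP, the ligase that degrades the LDL receptor. LXR also acts on Srebf1 and on fatty acid desaturases, so lipogenesis is shared between both arms.

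Between the genotypes, the desaturases Scd1 and Scd2 and the fatty acid synthase Fasn had higher values in KO on average over the libraries. The LXR alpha gene Nr1h3, the exporter Abcg1, the esterifying enzyme Soat1 and the sterol oxidase Msmo1 had lower ones. For Scd1, Scd2, Fasn, Nr1h3, Abcg1 and Soat1 the difference was larger without the library WT 1 than against WT 1 alone. For Msmo1 the 2 differences were -0.17 and -0.13 log2. The cholesterol synthesis enzymes had a median difference near 0, and that of the exporter Abca1 was 0.04 log2. WT and KO values overlapped for Scd1, Scd2, Nr1h3 and Abca1, and not for Fasn, Abcg1, Soat1 and Msmo1. None of the 39 genes passed the limma test over all genes at a Benjamini-Hochberg adjusted p of 0.05. The same held for all 13260 genes tested, of which 0 (0.0%) passed. At an unadjusted limma p under 0.05, 7 of the 39 were called (17.9%), 3 higher and 4 lower, where 24.4% of all tested genes were called, 14.7% higher and 9.68% lower. The WT and KO values did not overlap in 11 of the 39 (28.2%), against 29.5% of all tested genes. Of these 11, 2 were higher and 9 lower in KO, where 16.1% of all tested genes were higher and 13.4% lower without overlap. Taken over both directions, the shares of calls and of non-overlap were close to, or under, those of all genes. The 7 calls became 4 without WT 2, 3 without WT 3, 2 without KO 1, 2 without KO 2 and 11 without WT 1. Without KO 3 the number stayed at 7, but as 2 higher and 5 lower. Calls over all 13260 tested genes moved likewise, from 3230 to 2051, 1715, 1422, 1588 and 4349 (32.8%) in the same order. Without KO 3 there were 2981 such calls. The labels do not say whether each library came from a separate mouse, so these p-values measure the spread between the samples, which may be technical.

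The deposited values, called scaled counts here, are the reads left per gene after the authors' processing, scaled per library and rounded. Library totals lay between 5704313 and 5837994. Hdac2, the targeted gene, measured 534, 482 and 518 across WT 1 to WT 3 and 392, 387 and 375 across KO 1 to KO 3, a difference of -0.41 ± 0.057 (SE) log2 with a limma adjusted p of 0.158. The groups did not overlap, and an exact two-sided permutation test gave 0.1, the smallest p that 3 against 3 libraries allow. Which exon the Cre removes was not stated in the labels, and RNA from any exons that remain counts as Hdac2. Lyz2, the locus of the Cre, was at 1055 to 1144 in WT and 930 to 953 in KO. WT 1 stood apart from the other WT libraries: on the first principal component (78.6% of the variance) it lay at 12.7, WT 2 and WT 3 at -72.0 and -54.6, and the KO libraries from 19.9 to 51.5. Xist, which is expressed from the silenced X chromosome of female cells, was at 5243 in WT 1, 0 in WT 2, 74 in WT 3 and 3298 to 4997 in KO. Y-linked Ddx3y was highest in WT 2 (308) and WT 3 (745), low in WT 1 (44), and lowest in KO (0 to 10). The sex of the mice is not in the labels, and whether WT 1 was mixed or mislabelled was not tested. Leaving WT 1 out therefore makes genotype and this split the same division, and these cannot be told apart in that fit. With all 6 libraries genotype and the split still coincide in part, because WT 2 and WT 3, low in Xist and high in Ddx3y, are both WT. No KO library had that pattern. Genes named as called at an unadjusted p are therefore given with all 6 libraries, without WT 1, and for KO against WT 1 alone.

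The defining macrophage markers were abundant in all libraries. All 10 listed were in the table, and their summed level was 13793, 14160 and 14244 in WT and 12410, 12730 and 12433 in KO, with no overlap. Singly, 9 were lower in KO and Mertk was higher by 0.18 log2, and values of Mertk and Ptprc overlapped between groups. How far this sum follows the share of macrophage RNA was not tested. All 12 fibroblast and marrow stroma markers were in the table as well. Their sum was 14796 in WT 1, 6913 in WT 2, 6739 in WT 3, and 19304, 17665 and 15565 in KO, so that WT 1 again lay near the KO libraries. Col1a1, a fibrillar collagen, ran from 1798 to 3953, while Lepr, the leptin receptor of marrow stroma, did not exceed 9. None of the 6 adipocyte markers and none of the 3 hepatocyte markers, both cell types rich in Scd1, had a row in the table analysed here. The 5 endothelial markers summed to 95 to 194, and of the 5 neutrophil and 4 lymphocyte markers 1 each had a row.

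**Figure D1:**
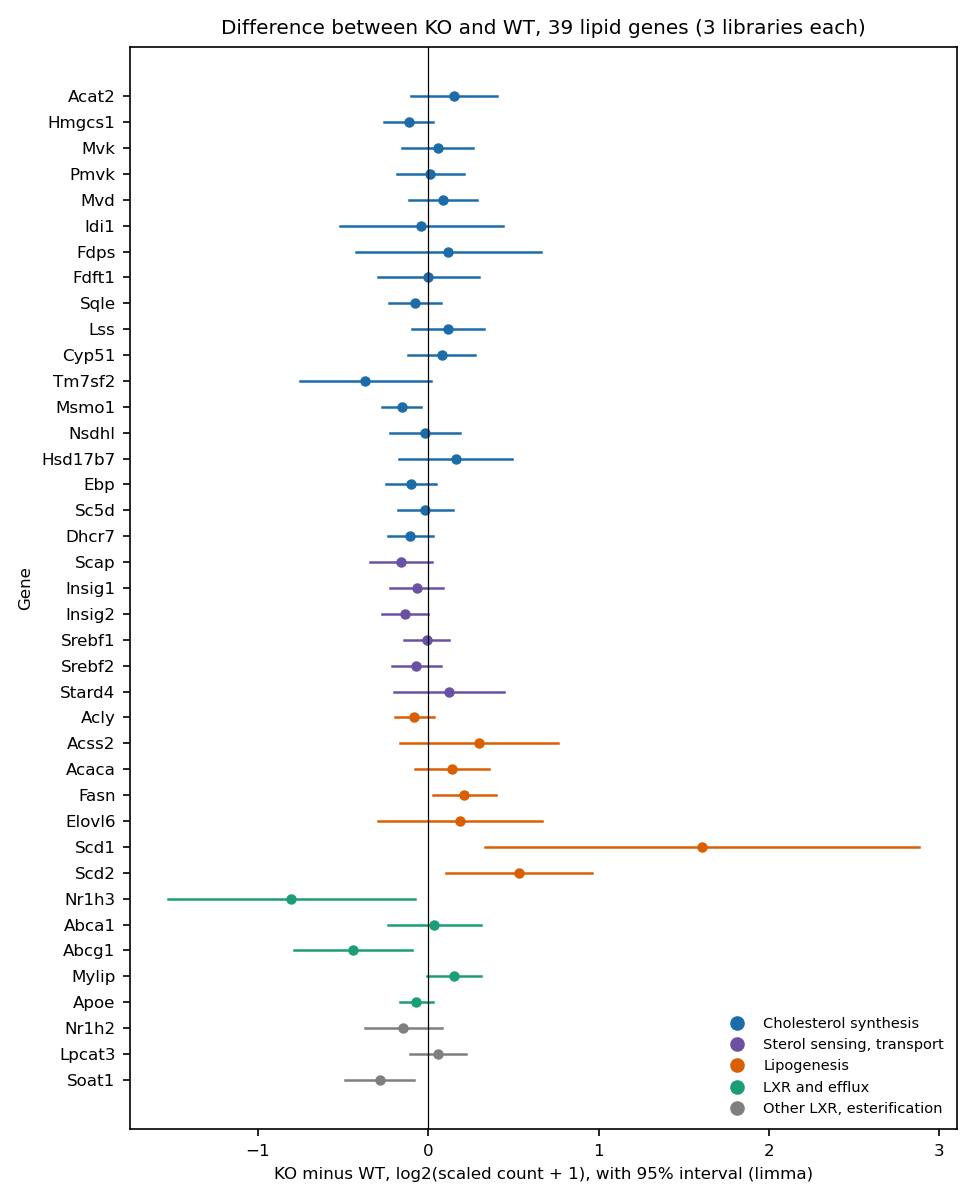
The difference between KO and WT on the log2(scaled count + 1) scale is plotted for each of the 39 genes, with points for the estimate, bars for the 95% interval from limma (3 libraries per group), and colours for the role. The intervals of Scd1, Scd2 and Fasn lie above 0 and those of Msmo1, Nr1h3, Abcg1 and Soat1 below it, and the cholesterol synthesis genes cluster around 0.

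The 18 cholesterol synthesis enzymes showed no common direction. Their mean log2 values were higher in KO for 9 and lower for 9, with a median difference of -0.0073 log2 against -0.0046 over all tested genes. Differences ran from -0.37 for Tm7sf2 to 0.16 for Hsd17b7. In 16 of the 18 the 95% interval lay inside a 1.5-fold change in either direction, and this held for 63.4% of all tested genes. The exceptions were Fdps, an enzyme that makes farnesyl diphosphate, at 31 to 50 in all libraries, and Tm7sf2. The summed level of the 18 genes was 6575, 6136 and 6144 in WT and 5915, 6561 and 6078 in KO, so the groups overlapped.

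The first steps of the pathway build mevalonate and isoprenoid units. Hmgcs1, which makes HMG-CoA, was at 773 to 842 in WT and 705 to 784 in KO. Acat2, which condenses acetyl-CoA, was at 134 to 152 in WT and 149 to 177 in KO. The mevalonate kinase Mvk was at 202 to 218 in WT and 202 to 237 in KO. Pmvk, the next kinase, spanned 146 to 159 in WT and 147 to 158 in KO, and the decarboxylase Mvd 197 to 223 and 211 to 235. The isomerase Idi1 was at 45 to 71 in WT and 54 to 60 in KO. All 7 of these early enzymes, Fdps included, overlapped between the groups. For Acat2, 34.5% of the 72-base windows also occur in Acat3, so its level is less certain.

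The later steps close the ring and trim lanosterol to cholesterol. Squalene synthase Fdft1 was at 243 to 327 in WT and 262 to 302 in KO, and squalene epoxidase Sqle at 546 to 600 and 517 to 572. The cyclase Lss was at 486 to 546 in WT and 511 to 612 in KO, and the demethylase Cyp51 at 608 to 696 and 636 to 749. These 4 genes overlapped between groups. Exons of Ctsb on the opposite strand overlap 18.3% of Fdft1, and exons of some other gene overlap 14 of the 39 genes in all. Nsdhl, a sterol dehydrogenase encoded on the X chromosome, spanned 294 to 295 in WT and 267 to 325 in KO. The reductase Hsd17b7 was at 268 to 359 in WT and 308 to 380 in KO, and the desaturase Sc5d at 465 to 512 and 459 to 514. The groups thus overlapped for all 7 of these later enzymes.

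Only Msmo1, Tm7sf2, Ebp and Dhcr7 had groups that did not overlap among the 18 (22.2%), in each case with lower KO values. Over all tested genes 29.5% did not overlap, 13.4% lower and 16.1% higher in KO. Msmo1, which encodes the sterol C4-methyl oxidase (ENSMUSG00000031604, chromosome 8, 64718139 to 64733792, mm10), measured 604, 629 and 611 across WT 1 to WT 3 and 537, 544 and 574 across KO 1 to KO 3. The difference was -0.16 ± 0.048 (SE) log2, with a limma adjusted p of 0.158. It was -0.17 without WT 1 (adjusted p = 0.109) and -0.13 against WT 1 alone, so that the size of the difference hardly depended on that library. Tm7sf2, a sterol reductase, had WT values of 136, 180 and 131 and KO values of 100, 121 and 122. Of its sequence windows of 72 bases, the read length, 8.95% also occur in Vps51, whose exons on the same strand overlap it, so part of its reads may be assigned to either gene. Ebp, the sterol isomerase, measured 336, 360 and 322 across WT 1 to WT 3 and 313, 317 and 318 across KO 1 to KO 3. Dhcr7, the reductase of the last step, had WT values of 464, 456 and 453 and KO values of 411, 450 and 417. Tm7sf2, Ebp and Dhcr7 differed by -0.37, -0.10 and -0.10 log2 (limma adjusted p = 0.217, 0.357 and 0.290).

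The regulators of the pathway differed little between groups. Of the 6 genes of sterol sensing and transport 5 had lower and 1 had higher KO means, with a median difference of -0.07 log2, and all 6 intervals lay inside the 1.5-fold range. Under cyclic loess scaling the differences of Srebf1 and Srebf2 turned from negative to 0.05 and 0.03. Srebf2, the main driver of sterol synthesis genes, was at 1610 to 1773 in WT and 1525 to 1653 in KO. Srebf1, the main driver of lipogenesis, was at 866 to 962 in WT and 886 to 904 in KO. Insig1, itself an SREBP target, was at 480 to 520 in WT and 458 to 508 in KO. Scap spanned 778 to 897 in WT and 701 to 795 in KO. Stard4, a carrier of sterol between membranes, was at 475 to 652 in WT and 589 to 691 in KO. Insig2 was the exception to the overlap, with WT values of 390, 408 and 381 and KO values of 346, 371 and 355, a difference of -0.14 ± 0.056 log2 (limma adjusted p = 0.205).

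Promoters from RefSeq (build GRCm38.p6, 250 bases before to 50 after each start) were searched on both strands for letters linked with these regulators, to set the sterol and efflux arms side by side. Of the 39 genes 32 had an entry, with 43 promoters among 32851 in all. The genes without an entry were Fdps, Fdft1, Sqle, Stard4, Scd1, Scd2 and Abcg1. CCAAT, the box bound by NF-Y, a partner of SREBP, was found for 24 of the 32 genes (75.0%), against 41.1% of all 27025 genes. By role these were 14 of 15 cholesterol synthesis genes (93.3%), 4 of 5 sterol sensing genes, 3 of 5 lipogenesis genes, 1 of 4 efflux genes (Mylip) and 2 of 3 other LXR and esterification genes (Lpcat3 and Soat1). The classical sterol element TCACNCCAC was found in 1 of the 32 genes, Hmgcs1, and in 1.44% of all genes. CACGTG, an E-box that SREBP-1 and the USF proteins can bind, was found in 6 of the 32 genes and 8.09% of all genes. AGGTCA, a core recognition sequence of nuclear receptors, was found in 5 of the 32 genes (Acly, Dhcr7, Elovl6, Hmgcs1 and Insig1) and 18.1% of all genes. It was found in 0 of the 4 efflux genes and 0 of the 3 other LXR and esterification genes. The promoters of Hmgcs1 (chr13:119690101-119690400, + strand), Insig1 (chr5:28071162-28071461, + strand), Fasn (chr11:120824498-120824797, - strand), Soat1 (chr1:156474279-156474578, - strand) and Nr1h3 (chr2:91195067-91195366, - strand) are shown because they span the roles, and capitals mark the matches on either strand.
Hmgcs1: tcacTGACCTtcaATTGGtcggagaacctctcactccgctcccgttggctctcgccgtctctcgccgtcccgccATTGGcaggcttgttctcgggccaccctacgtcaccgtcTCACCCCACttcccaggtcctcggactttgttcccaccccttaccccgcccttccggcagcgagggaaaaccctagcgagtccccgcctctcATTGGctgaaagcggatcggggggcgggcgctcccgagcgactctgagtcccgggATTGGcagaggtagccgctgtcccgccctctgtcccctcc
Insig1: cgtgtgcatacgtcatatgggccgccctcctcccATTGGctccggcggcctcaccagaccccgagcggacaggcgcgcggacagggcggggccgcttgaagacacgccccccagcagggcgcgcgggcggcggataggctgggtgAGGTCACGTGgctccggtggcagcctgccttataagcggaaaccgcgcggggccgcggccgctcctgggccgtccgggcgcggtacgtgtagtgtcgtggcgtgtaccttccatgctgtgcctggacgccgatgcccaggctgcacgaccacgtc
Fasn: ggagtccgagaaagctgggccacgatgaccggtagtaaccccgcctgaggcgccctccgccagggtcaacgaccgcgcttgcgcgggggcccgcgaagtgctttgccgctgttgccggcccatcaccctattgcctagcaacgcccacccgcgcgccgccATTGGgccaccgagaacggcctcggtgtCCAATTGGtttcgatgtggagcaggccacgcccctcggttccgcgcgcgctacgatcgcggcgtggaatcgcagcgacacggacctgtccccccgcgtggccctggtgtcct
Soat1: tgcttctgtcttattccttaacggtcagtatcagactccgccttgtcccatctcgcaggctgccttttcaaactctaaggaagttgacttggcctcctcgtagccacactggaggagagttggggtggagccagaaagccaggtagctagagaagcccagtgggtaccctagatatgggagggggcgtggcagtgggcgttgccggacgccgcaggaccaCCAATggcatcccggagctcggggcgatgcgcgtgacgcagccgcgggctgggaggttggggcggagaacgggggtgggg
Nr1h3: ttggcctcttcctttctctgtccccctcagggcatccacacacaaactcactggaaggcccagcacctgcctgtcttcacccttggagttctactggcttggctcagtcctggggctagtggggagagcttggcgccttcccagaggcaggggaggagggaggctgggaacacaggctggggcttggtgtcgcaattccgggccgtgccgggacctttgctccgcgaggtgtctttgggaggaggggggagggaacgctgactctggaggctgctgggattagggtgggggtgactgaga
The Hmgcs1 promoter held the sterol element, 4 CCAAT boxes and 1 AGGTCA. In Insig1 the AGGTCA and the CACGTG shared the letters CA. Fasn held 3 CCAAT matches, of which a forward and a reverse match overlapped. Soat1 held 1 CCAAT box, and the Nr1h3 window held none of the 4 motifs. A match describes letters only, and no binding was measured.

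Of the 7 lipogenesis genes 6 had higher KO means, with a median difference of 0.21 log2 against -0.0046 over all genes. Of these, 3 were called at an unadjusted limma p under 0.05, all higher, and 0 after adjustment, where 24.4% of all tested genes were called unadjusted and 14.7% were called higher. The summed level was 6338 in WT 1, 5317 in WT 2, 5122 in WT 3, and 6626, 7140 and 6302 in KO. WT 1 thus lay within the KO range, and against WT 1 alone the median difference was 0.01 log2, compared with 0.32 without WT 1. Stroma marker sums followed the same order of WT libraries, with 14796 in WT 1 and 6739 to 6913 in the others, and their part in the lipogenesis values was not tested. In RNA from a mixture of cells, fewer cells of a type and less RNA per cell cannot be told apart.

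Scd1 had the largest difference of all 39 genes with all 6 libraries. It encodes the stearoyl-CoA desaturase that makes oleate (ENSMUSG00000037071, chromosome 19, 44394455 to 44407879, mm10). It measured 336, 92 and 98 across WT 1 to WT 3 and 486, 555 and 325 across KO 1 to KO 3. KO 3 lay just under WT 1, so the groups overlapped at that pair alone. The difference was 1.61 ± 0.524 log2, a KO mean 2.60 times the WT mean, and the limma adjusted p was 0.160. Without WT 1 it was 2.21 ± 0.227 log2, 4.79 times, with an adjusted p of 0.00237, and against WT 1 alone 0.40 log2. Of its 72-base windows, 3.21% also occur in other genes, among them Scd2, Scd3 and Scd4.

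Scd2, the neighbouring desaturase gene on chromosome 19 (ENSMUSG00000025203, 44293674 to 44306864), likewise had WT 1 between KO 3 and the higher KO libraries, at a higher level. It had WT values of 1601, 1195 and 1030 and KO values of 1852, 2034 and 1582, and WT 1 again exceeded KO 3. The difference was 0.53 ± 0.177 log2 (limma adjusted p = 0.163). It was 0.71 log2 without WT 1 (adjusted p = 0.0149) and 0.18 against WT 1 alone. Fasn, the multi-domain synthase that builds palmitate (ENSMUSG00000025153, chromosome 11, 120805846 to 120824547), measured 1944, 1678 and 1651 across WT 1 to WT 3 and 1951, 2114 and 2025 across KO 1 to KO 3. Its groups did not overlap, but WT 1 lay just under KO 1. The difference was 0.21 ± 0.076 log2 (adjusted p = 0.172), 0.29 without WT 1 (adjusted p = 0.0239) and 0.06 against WT 1 alone.

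The other lipogenic genes differed less. Acly, which makes cytosolic acetyl-CoA from citrate, went the other way without overlap, with WT values of 1594, 1681 and 1619 and KO values of 1487, 1569 and 1570. Its difference was -0.08 log2, with a limma adjusted p of 0.328, and 0.02 under cyclic loess scaling. The acetyl-CoA carboxylase Acaca was at 404 to 507 in WT and 481 to 505 in KO, and the elongase Elovl6 at 163 to 271 and 246 to 274. Acss2, which activates acetate, was at 62 to 85 in WT and 71 to 99 in KO. All 3 overlapped between groups. For Acaca, 27.2% of the 72-base windows also occur in other annotated genes, so its level is less certain.

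**Figure D2:**
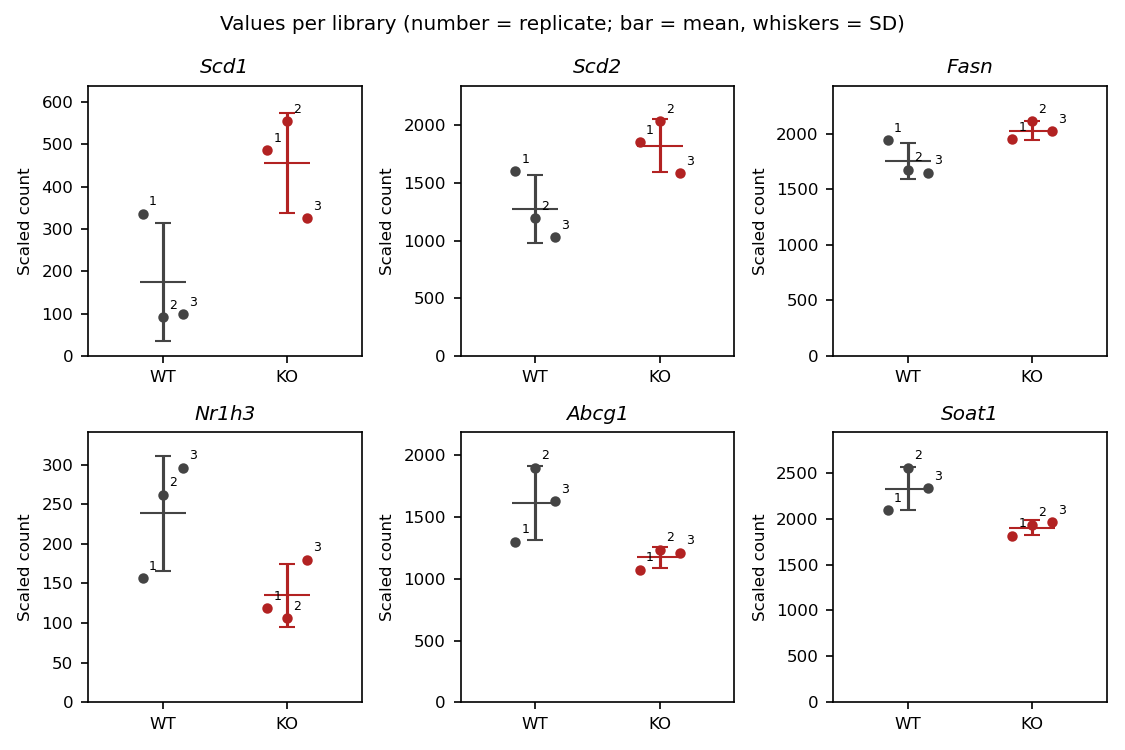
Scaled counts are plotted for Scd1, Scd2, Fasn, Nr1h3, Abcg1 and Soat1, with a numbered point for each library, a horizontal bar for the group mean and whiskers for the SD (n = 3 each). Scd1 in WT 1 (336) lies among the KO values (325 to 555) and far above WT 2 and WT 3 (92 and 98), and in each of the 6 genes WT 1 is the WT library nearest to the KO mean.

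The LXR and efflux genes showed no common direction. Of the 5 genes, 2 had higher and 3 had lower KO means, with a median difference of -0.07 log2 that was 0.0004 under cyclic loess scaling. At an unadjusted limma p under 0.05, 2 of the 5 were called, both lower, where 24.4% of all tested genes were called and 9.68% were called lower. The summed level was 6197, 6647 and 6509 in WT and 5966, 6494 and 5602 in KO, and the groups overlapped.

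Nr1h3 encodes LXR alpha (ENSMUSG00000002108, chromosome 2, 91184061 to 91202834). It had WT values of 157, 262 and 296 and KO values of 119, 106 and 180. KO 3 exceeded WT 1, and WT 2 and WT 3 lay above every other library. The difference was -0.80 ± 0.299 log2, a KO mean of 0.566 of the WT mean, with a limma adjusted p of 0.179. Without WT 1 it was -1.08 log2 (adjusted p = 0.0293), and against WT 1 alone -0.25.

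Abcg1, which exports cholesterol to HDL particles (ENSMUSG00000024030, chromosome 17, 31057675 to 31117988), measured 1302, 1901 and 1632 across WT 1 to WT 3 and 1076, 1236 and 1213 across KO 1 to KO 3. All KO libraries lay below all WT libraries, with WT 1 the nearest. The difference was -0.44 ± 0.142 log2, 0.729 of the WT mean, with a limma adjusted p of 0.159. Without WT 1 it was -0.59 (adjusted p = 0.0119), and against WT 1 alone -0.15. The summed macrophage markers were also lower in all KO libraries, with a median difference of -0.19 log2 over the 10 genes. Any part of macrophage content in the lower values of Nr1h3 and Abcg1, or of any other gene lower in KO, was not tested.

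Abca1, the exporter that loads lipid-poor apolipoproteins and the other textbook LXR target, did not share this pattern. It had WT values of 3112, 2819 and 3018 and KO values of 3134, 3492 and 2605, so that KO 2 was the highest and KO 3 the lowest of all libraries. The difference was 0.04 log2, with a 95% interval from -0.24 to 0.31 and a limma adjusted p of 0.885. Mylip measured 605, 625 and 543 across WT 1 to WT 3 and 647, 672 and 647 across KO 1 to KO 3, higher without overlap, a difference of 0.15 ± 0.064 log2 (adjusted p = 0.217). Apoe had WT values of 1021, 1040 and 1020 and KO values of 990, 988 and 957, lower without overlap. Its difference was -0.07 ± 0.039 log2 (adjusted p = 0.322), and it was 0.0004 under cyclic loess scaling. Among the 5 genes of the LXR and efflux list, then, 3 had no overlap (60%, against 29.5% of all tested genes). Of these, Mylip was higher in KO, and Abcg1 and Apoe were lower. Differences between the differences of these genes were not tested.

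The remaining LXR and esterification genes were Nr1h2, Lpcat3 and Soat1. Nr1h2, which encodes LXR beta, was at 616 to 745 in WT and 573 to 659 in KO, and the phospholipid-remodelling enzyme Lpcat3 at 475 to 520 and 500 to 563. Both overlapped between groups. Soat1 encodes the acyltransferase that turns cholesterol into stored esters (ENSMUSG00000026600, chromosome 1, 156424525 to 156474331). It measured 2088, 2553 and 2331 across WT 1 to WT 3 and 1812, 1932 and 1960 across KO 1 to KO 3, without overlap. The difference was -0.29 ± 0.083 log2, 0.818 of the WT mean (limma adjusted p = 0.158). It was -0.36 without WT 1 (adjusted p = 0.0193) and -0.14 against WT 1 alone.

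**Figure D3:**
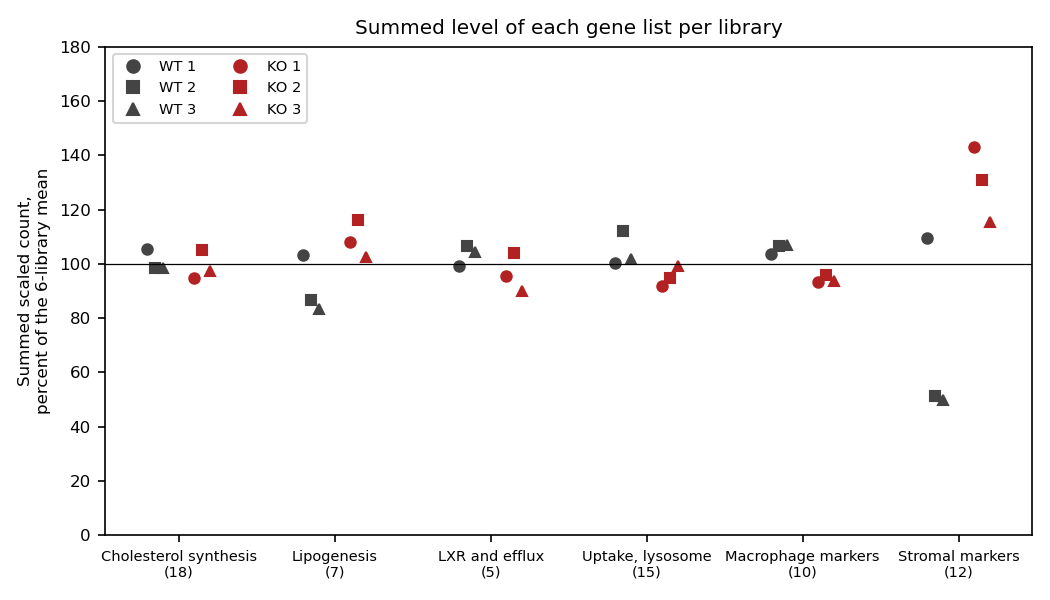
The summed scaled count of 4 lipid gene lists and of the macrophage and stromal markers is plotted for each library (WT grey, KO red, symbols by replicate) as a percentage of the mean over the 6 libraries. Lipogenesis in WT 1 stands at 103% beside KO values of 103% to 116% and 83.4% and 86.6% in WT 3 and WT 2, while cholesterol synthesis stays between 94.9% and 105% in all libraries.

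Without WT 1, 6 of the 39 genes passed the adjusted limma test (15.4%), where 17.8% of all tested genes passed, 12.8% higher and 5.07% lower. Fasn, Scd1 and Scd2 were higher and Nr1h3, Abcg1 and Soat1 lower. In this fit none of the 18 cholesterol synthesis genes and none of the 6 sterol sensing genes passed. Against WT 1 alone, 0 of the 39 genes had an unadjusted p under 0.05, and 6.23% of all tested genes did. In that fit WT 1 is assumed to vary like the KO libraries, which alone give the spread, so few calls can be made and the count says little about the members. In 22 of the 39 genes (56.4%) WT 1 lay between the mean of the other WT libraries and the KO mean, as it did in 52.8% of all tested genes.

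**Figure D4:**
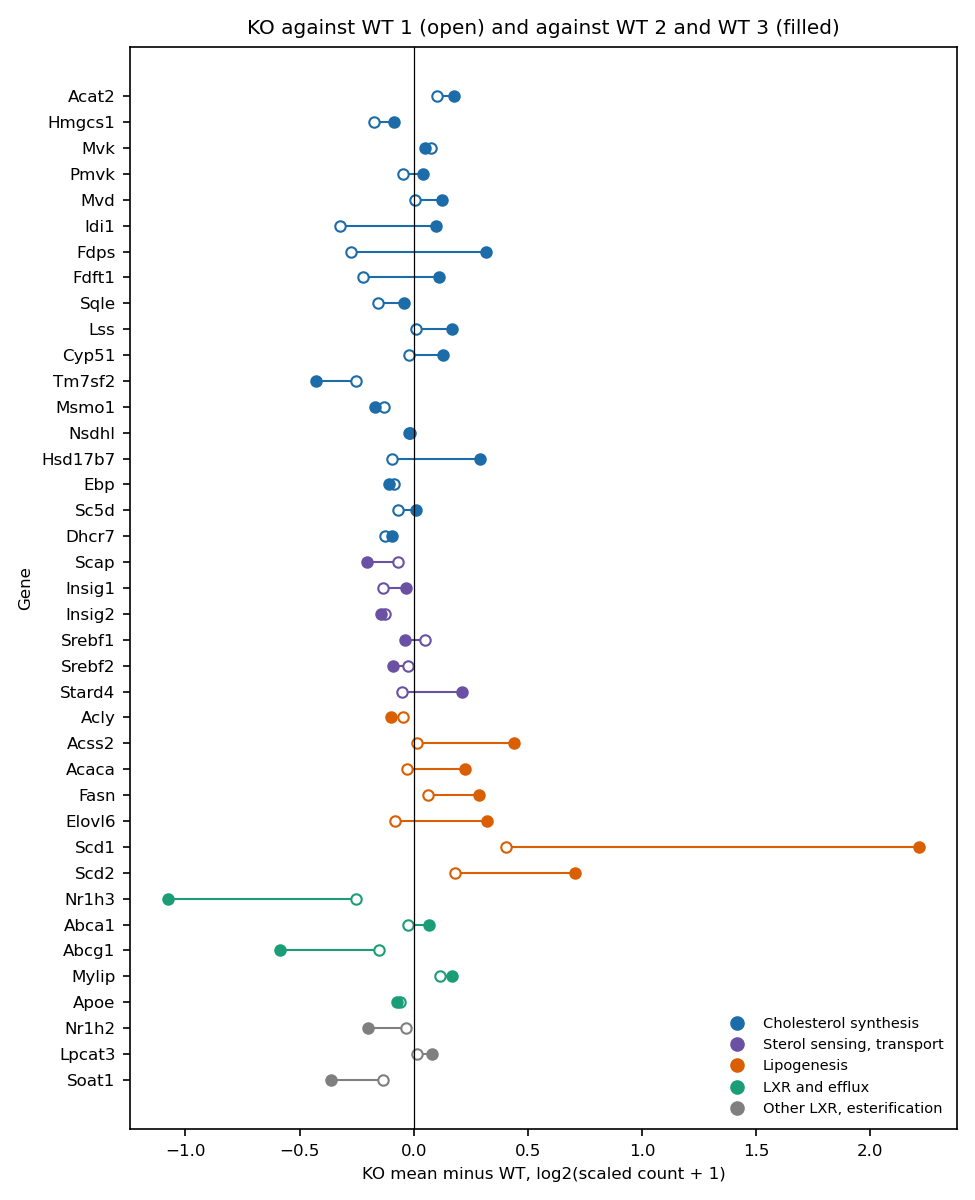
For each gene the KO mean minus WT 1 (open points) and minus the mean of WT 2 and WT 3 (filled points) is plotted on the log2(scaled count + 1) scale, joined by a line. Scd1 moves from 0.40 to 2.21 and Nr1h3 from -0.25 to -1.08, whereas Msmo1 stays at -0.13 and -0.17.

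Per 1000 exonic bases, a scale that allows for gene length, Apoe had the highest mean level of the members over the 6 libraries at 469 scaled counts. It was highest in both groups, and the genes after it differed in order by group. In WT these were Acly (309), Abca1 (288) and Soat1 (237), and in KO Scd2 (334), Abca1 (297) and Acly (292). Over the 6 libraries Srebf2 stood at 226 and Srebf1 at 160. LXR beta exceeded LXR alpha, with 190 for Nr1h2 and 74.2 for Nr1h3. Abca1 (292) exceeded Abcg1 (191), and Scd2 (283) exceeded Scd1 (64.5). The lowest were Acss2 at 7.72, Fdps at 9.51 and Idi1 at 16.5. These levels use the union of all annotated exons, which lowers the value of genes with long annotated variants, and Fdps and Idi1 share 23.8% and 16.9% of their 72-base windows with other genes. The macrophage markers Lyz2 and Cd68 stood at 772 and 835 on this scale. Whether any removal of duplicate reads compressed the levels of abundant genes, and so their ranking, was not tested.

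**Figure D5:**
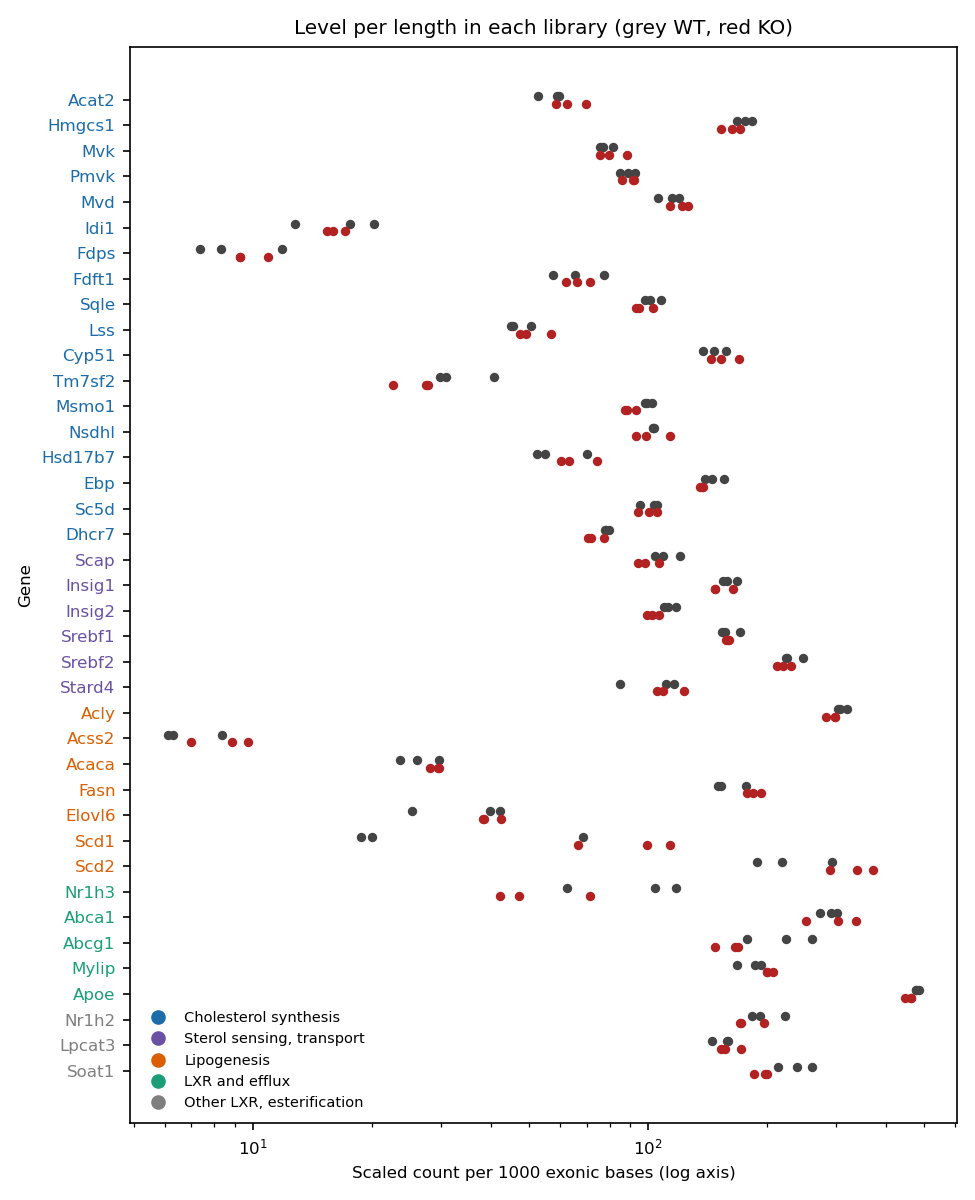
The level of each of the 39 genes is plotted per 1000 exonic bases on a log axis, with a grey point for each WT library, a red point for each KO library, and gene names coloured by role. Apoe lies farthest right (mean 469) and Acss2 farthest left (mean 7.72), and the groups do not overlap in 11 genes (28.2%, against 29.5% of all tested genes).

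The wider pathway was read from 78 further genes, of which 75 were in the table and 71 were tested. At an unadjusted limma p under 0.05, 18 of the 71 were called (25.4%, against 24.4% of all tested genes) and 0 after adjustment. Among 12 other genes of cholesterol and isoprenoid synthesis none was called. The electron donors Por and Cyb5r3 and the dolichol-synthesis subunit Nus1 had differences of -0.29, -0.11 and -0.11 log2. In the SREBP processing list 3 of 16 were called (18.75%, against 24.4% of all tested genes). Sec23a, a coat subunit of the vesicles that carry SCAP, measured 565, 457 and 464 across WT 1 to WT 3 and 741, 671 and 599 across KO 1 to KO 3, higher without overlap. It differed by 0.44 log2, by 0.54 without WT 1 (limma adjusted p = 0.0168) and by 0.24 against WT 1 alone. Of the NF-Y subunits, Nfyb differed by 0.18 and Nfya by -0.19 log2, by 0.17 and -0.25 without WT 1 (adjusted p = 0.2 and 0.0684) and by 0.20 and -0.07 against WT 1 alone.

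Uptake and lysosomal handling had the largest share of calls of the 5 wider lists, 7 of 14 genes (50%), 5 of them lower. Over all tested genes 24.4% were called, 14.7% higher and 9.68% lower. The median difference of this list was -0.13 log2, and it became -0.0029 under cyclic loess scaling. Npc2, which hands cholesterol out of the lysosome, had WT values of 1576, 1815 and 1652 and KO values of 1384, 1372 and 1469. Stard3, a tether between late endosomes and the endoplasmic reticulum, measured 576, 655 and 625 across WT 1 to WT 3 and 498, 515 and 530 across KO 1 to KO 3. Nceh1, a cholesteryl ester hydrolase, had WT values of 1869, 2199 and 1985 and KO values of 1595, 1629 and 1792. These 3 had no overlap, differences of -0.25, -0.26 and -0.27 log2 with all 6 libraries, and limma adjusted p-values of 0.158. Vldlr, a lipoprotein receptor, measured 145, 46 and 39 across WT 1 to WT 3 and 309, 250 and 178 across KO 1 to KO 3, higher without overlap by 1.89 ± 0.514 log2 (adjusted p = 0.158), a KO mean 3.20 times the WT mean. Without WT 1 the Vldlr difference was 2.47 log2, 5.78 times (adjusted p = 0.00201), and against WT 1 alone 0.72 log2. Npc2, Stard3 and Nceh1 also passed without WT 1, at -0.30, -0.31 and -0.32 log2 (limma adjusted p = 0.0319, 0.0193 and 0.0416), and each was at -0.16 against WT 1 alone.

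Among 13 tested genes of efflux, LXR partners and oxysterols, 3 were called (23.1%, against 24.4% of all tested genes). All 3 were lower, where 9.68% of all tested genes were called lower. All 3 were also without overlap, as were 29.5% of all tested genes. Lpl, the lipoprotein lipase, had WT values of 2802, 3512 and 3270 and KO values of 2048, 2092 and 2688, a difference of -0.49 ± 0.134 log2. Pltp, the phospholipid transfer protein, measured 1050, 1346 and 1176 across WT 1 to WT 3 and 897, 942 and 1030 across KO 1 to KO 3. Smpdl3a, a phosphodiesterase induced by LXR in human macrophages, had WT values of 857, 937 and 937 and KO values of 699, 746 and 822. Ch25h, which makes 25-hydroxycholesterol, measured 339, 97 and 153 across WT 1 to WT 3 and 357, 332 and 338 across KO 1 to KO 3, so that WT 1 lay inside the KO range. With all 6 libraries Pltp, Smpdl3a and Ch25h differed by -0.31, -0.27 and 0.99 log2. The limma adjusted p-values of Lpl and these genes, 4 in all, ran from 0.158 to 0.219. Without WT 1 all 4 passed: Lpl, Pltp and Smpdl3a at -0.59, -0.40 and -0.31 log2 (adjusted p = 0.0320, 0.0325 and 0.0468) and Ch25h at 1.48 (adjusted p = 0.00523), a KO mean 2.74 times that of WT 2 and WT 3 against 1.74 times that of all WT. Against WT 1 alone they differed by -0.31, -0.14, -0.18 and 0.01 log2.

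In the fatty acid list 5 of 16 genes were called (31.25%), 3 higher and 2 lower, against 14.7% higher and 9.68% lower over all tested genes. Me1, the malic enzyme that supplies NADPH, had WT values of 139, 91 and 74 and KO values of 257, 214 and 169, higher without overlap by 1.10 ± 0.266 log2 (limma adjusted p = 0.158). Fads2, a desaturase of polyunsaturated fatty acids, measured 470, 219 and 257 across WT 1 to WT 3 and 580, 687 and 470 across KO 1 to KO 3, so that WT 1 equalled KO 3. Acacb, the mitochondrial acetyl-CoA carboxylase, was low throughout, at 11 to 14 in WT and 19 to 28 in KO. Hsd17b12, an enzyme of fatty acid elongation, had WT values of 788, 837 and 807 and KO values of 722, 709 and 740. With all 6 libraries Fads2, Acacb and Hsd17b12 differed by 0.94, 0.85 and -0.16 log2. Without WT 1, Me1 and Fads2 passed at 1.35 and 1.27 log2 (limma adjusted p = 0.00875 and 0.00585), and Acacb and Hsd17b12 did not, at 0.96 and -0.18 (adjusted p = 0.0677 and 0.0681). Against WT 1 alone Me1, Fads2, Acacb and Hsd17b12 differed by 0.59, 0.28, 0.64 and -0.12 log2. In Fads2 and Ch25h, as in Scd1 and Scd2, WT 1 thus lay nearer the KO mean than WT 2 or WT 3 did. The summed stromal markers were likewise highest in WT 1 among the WT libraries. Their median difference was 1.04 log2, against -0.0046 over all tested genes. Any part of stromal content in the Vldlr, Ch25h, Fads2 and Me1 values was not tested.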

How the data were processed

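Per the labels' protocols, total RNA went through a stranded mRNA kit, with single reads of 72 bases. Per the submitters' processing notes, the build was mm10 and the tools were STAR 2.7.10a, featureCounts 2.0.3, DESeq2 1.36.0, Trimmomatic 0.39 and Picard 2.27.4. Whether reads were assigned by strand is not stated there. Picard can remove duplicate reads, and any effect of that on the levels or differences of abundant genes was not tested. The deposited values are whole numbers with nearly equal library totals, and were treated as a score, that is, counts the authors scaled and rounded, so no count model or counting interval applies. The count test planned for raw reads therefore gave way to limma.

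A value of 10 or more in 3 or more libraries admitted 13260 genes to limma 3.58.1 (R 4.3.3, intensity trend, two-sided, Benjamini-Hochberg over all tested genes, threshold 0.05) on log2(value + 1), which understates the change of low genes. All 39 genes passed this filter, with at least 31 in each library. Window and overlap checks used GENCODE M21 transcripts. Python 3.11.15, pandas 2.3.3 and scipy 1.17.1 were used for the rest. The fit was tested on simulated data.

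The members, lists and tests were chosen with earlier results of these data known. Values per library were given for members without overlap between groups, with an unadjusted p under 0.05 or in the efflux list, and up to 4 genes with the smallest p were named from each wider list. Of the genes this rule takes, 2 are not reported here. Alternatives were other pseudocounts, filters and scalings, leaving out each library, WT 1 alone, a replicate block and array weights. Same-numbered libraries deviated together with correlations of 0.534, -0.364 and 0.0238, so numbers were not taken as pairs.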

Additional observations from a re-analysis of the deposited data

How the results depend on the processing

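With all 6 libraries 0 genes and 0 members passed the adjusted limma test under every scaling, pseudocount and filter tried, and at an unadjusted p under 0.05 there were 3230 genes. Leaving out 1 library gave 0 to 2363 genes and 0 to 6 members after adjustment, where only the fit without WT 1 gave any, and 1422 to 4349 genes and 2 to 11 members unadjusted. WT 1 as the only WT library gave 826 genes and 0 members unadjusted and a cholesterol synthesis median of -0.0926. Array weights, chosen after seeing the data, gave 5045 genes and 12 members adjusted and 6356 and 15 unadjusted, where WT 1 was weighted 0.366, WT 2 0.265 and WT 3 3.68. With genes of a mean of at least 100, 1072 higher and 1128 lower genes were called unadjusted, against 1947 and 1283 with the filter reported. The replicate block, which rests on numbers that were not shown to pair the libraries, gave 0 genes adjusted, 2744 unadjusted and 5 members unadjusted. DESeq2 was not run because the values are not raw counts.

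Of the 39 members 22 kept their sign in all 17 alternatives, among them Scd1, Scd2, Fasn, Nr1h3, Abcg1, Soat1 and Msmo1. Under cyclic loess these named genes differed by 1.61, 0.63, 0.32, -0.83, -0.35, -0.17 and -0.12 log2, in that order. Abcg1, Soat1 and Msmo1 thus differed less, and Scd2 and Fasn more, than in the fit reported, while Scd1 and Nr1h3 changed little. Signs turned with WT 1 as the only WT library for Pmvk (-0.0466), Fdps (-0.2729), Fdft1 (-0.2204), Cyp51 (-0.0206), Hsd17b7 (-0.0969), Srebf1 (0.049), Stard4 (-0.0537), Acaca (-0.03), Elovl6 (-0.0836) and Abca1 (-0.0267). They turned under cyclic loess for Pmvk (-0.0224), Fdps (-0.0931), Sc5d (0.0123), Srebf1 (0.0541), Srebf2 (0.0298), Acly (0.0164) and Apoe (0.0004), under array weights for Nsdhl (0.0095) and Srebf1 (0.0153), and under upper quartile scaling for Srebf1 (0.0008). Leaving out 1 library gave ranges across 0 for Mvk (-0.0078 to 0.1069), Pmvk (-0.019 to 0.0455), Idi1 (-0.2253 to 0.0979), Fdps (-0.0217 to 0.3145), Fdft1 (-0.1011 to 0.1123), Nsdhl (-0.1008 to 0.0405), Sc5d (-0.0579 to 0.0274), Srebf1 (-0.0391 to 0.0367), Stard4 (-0.0174 to 0.2107), Elovl6 (-0.0427 to 0.3223) and Abca1 (-0.0609 to 0.1504). The cause was not tested for any of these. The depth behind each value is unknown.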
